A study of Aloe vera with 7 samples.

Results

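Serine carboxypeptidase-like proteins (SCPL) and subtilisin-like proteases (SBT) are families of plant enzymes that use a catalytic serine. Their transcripts were followed here in root and leaf of Aloe vera, through the probe sets of 30 Arabidopsis genes. A probe set is a group of short probes designed against one gene. Members were taken by name: a probe set carrying 1 gene, whose symbol starts with scpl or SBT followed by a number. This gave 24 SCPL genes and 6 SBT genes, with 1 probe set each, among 10991 genes that have a single-gene probe set. All 30 entered the test, which ran over 18810 probe sets. No filter on low values was applied here, and whether the table was filtered before deposit is not stated.

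The series compared root RNA (3 arrays) with leaf RNA (3 arrays) of Aloe vera, a succulent monocot, on Affymetrix ATH1 arrays, which carry probes for Arabidopsis thaliana. A further array of genomic DNA has no values in the table. The labels describe 1 mature plant, bought at a garden centre and kept indoors at room temperature, with no treatment, genotype or age given for either tissue. Nothing says that the replicates were separate plants, and a p-value here therefore covers the variation among these arrays alone, which may be technical. A value reports how much labelled Aloe RNA bound probes made for an Arabidopsis gene. Which Aloe transcript bound was not tested, and gene roles given below are those known in Arabidopsis.

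Subtilisin-like proteases cut proteins internally, and many plant members are secreted into the cell wall, where they mature peptide hormone precursors and process pectin-modifying enzymes. They are made as inactive precursors whose prodomain is removed before they act. Serine carboxypeptidases remove amino acids from the C-terminal end of proteins, in the vacuole among other places. A branch of the SCPL family has taken another role: its members transfer acyl groups from glucose esters in the making of sinapate esters and other plant metabolites. In Arabidopsis the known acyltransferases carry numbers from the low end of the family.

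Each value below is given on the log2 scale relative to the median of that probe set across the 6 RNA arrays, so 0 is the middle of that probe set and not the absence of RNA. Differences between tissues are root minus leaf, in log2 units, where the log base is that usual for RMA and is not stated, and no level of one gene can be set against that of another. In such bulk samples fewer cells of a type and less RNA per cell cannot be told apart. Array medians over all probe sets lay between 0.0019 and 0.017 in root and between -0.014 and -0.0023 in leaf. The number of arrays limits the precision, and the median standard error of a difference was 0.26 over all probe sets.

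The tissue labels were looked at first. The marker lists were chosen with earlier results of these data known, so they give no independent check of the labels. All 14 leaf markers, which are chloroplast-encoded and nuclear photosynthesis genes, had a higher mean in leaf. Of them 5 passed the test, against 0.276% of all probe sets with leaf higher. The root minus leaf differences of the 14 genes ran from -4.76 to -0.28. Summed over the 14 genes, the root arrays stood between -15.1 and -10.9 and the leaf arrays between 10.7 and 24.7. Leaf replicate 2 was the lowest of the leaf arrays in this sum. It was also low in the array's control for 25S ribosomal RNA, at -4.72 against -0.90 to 1.08 on the other 5 arrays. The 12 probe sets for the Bacillus transcripts that serve as spiked controls had a median of -1.33 in root replicate 1, -0.23 in root replicate 2 and 0.75 in root replicate 3. In leaf replicates 1 to 3 their median was 0.063, -0.063 and 1.05. The tissues overlapped in these controls, and their part in the results below was not tested. Listed genes were matched by symbol to single-gene probe sets, and a measured gene, here and below, is one that matched. Of the 18810 probe sets tested, 7360 have no gene listed and 350 carry several genes. An unmatched gene may therefore still have a probe set among these. Of the 18 root markers 2 were measured, the root hair expansins EXPA7 at 0.084 ± 0.28 and EXPA18 at 0.082 ± 0.24. In limma 0 passed, with 0 at an unadjusted p under 0.05. These 2 genes did not separate the tissues, so root identity was not established by markers. All 4 measured guard cell markers, of a cell type of the leaf epidermis, had a higher mean in root, as did 54.5% of all probe sets. In limma 0 of these 4 passed, and FMA had an unadjusted p under 0.05, as did 4.68% of all probe sets on the root side. The difference of FMA was 0.61 ± 0.23 (adjusted p = 0.452). The differences of the others were small beside their errors or near them, at 0.25 ± 0.20 for MUTE, 0.11 ± 0.21 for AT1G22690 and 0.022 ± 0.20 for SPCH.

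The question put to the families was which of their probe sets bound root and leaf RNA unequally. SBT4.13 rose in root, and it was the only member to pass the test in either direction under the settings of the main comparison. The other 29 members did not pass. Over all probe sets 0.340% passed at a Benjamini-Hochberg adjusted p under 0.05 in limma, 0.0638% higher in root and 0.276% higher in leaf. Of the 24 SCPL members 0 passed in limma, and 2 had an unadjusted p under 0.05, both higher in root.

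**Figure D1:**
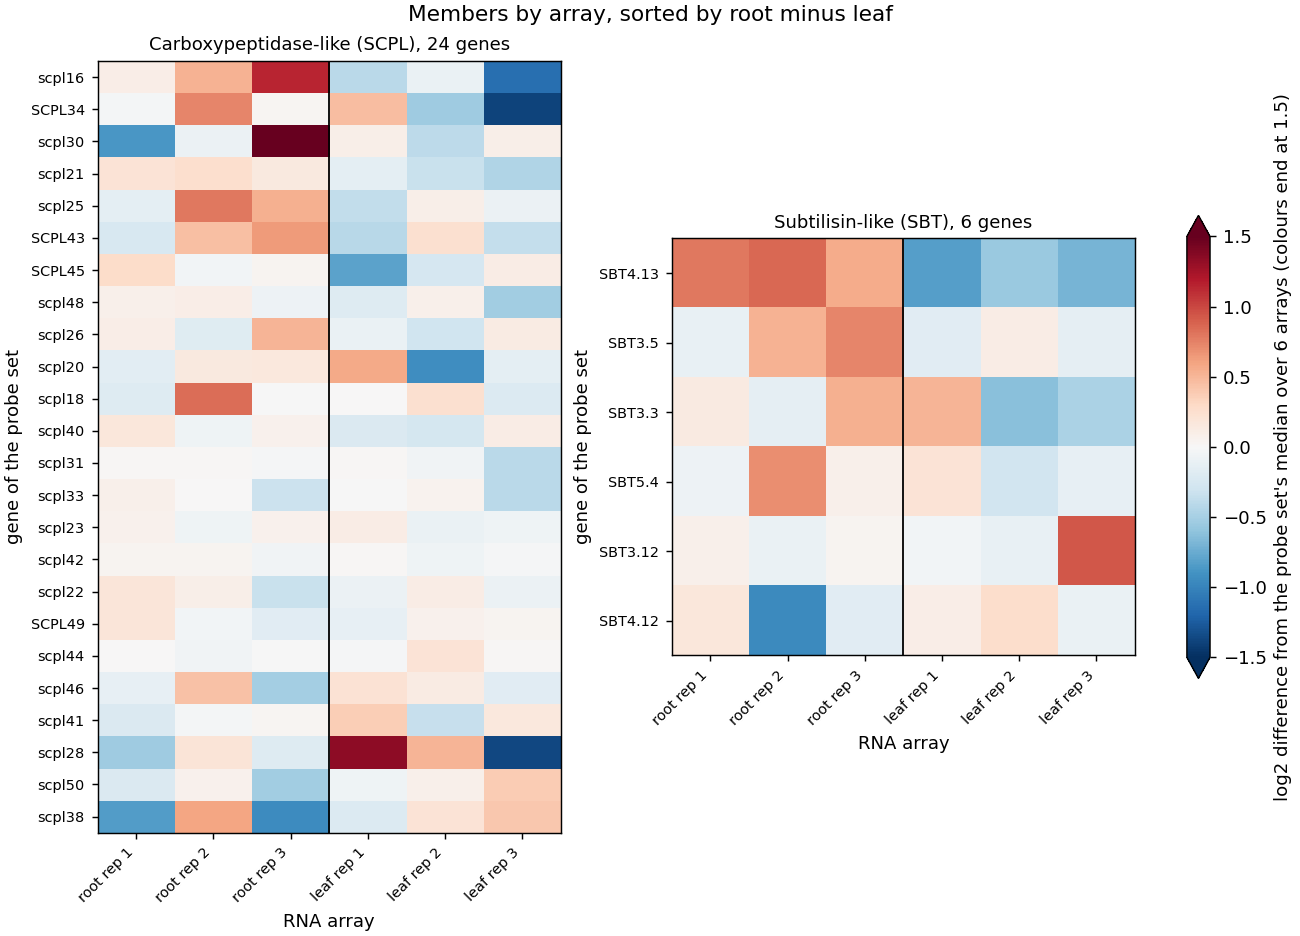
Colour shows the log2 value relative to the median of each probe set across 6 RNA arrays, with one row per gene and one column per array, root left of the black line and leaf right of it, for 24 SCPL genes (left panel) and 6 SBT genes (right panel) sorted by root minus leaf. SBT4.13 has 3 high root arrays and 3 low leaf arrays, while most rows are mixed within a tissue.

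SBT4.13 is a subtilase of subfamily 4 which, with SBT4.12 and SBT5.2, cuts the precursor of the peptide IDA, a signal for the shedding of floral organs. Its probe set stood at 0.79, 0.86 and 0.55 in root replicates 1 to 3, against -0.83, -0.55 and -0.70 in leaf replicates 1 to 3. All root arrays lay well above all leaf arrays, and the gap between the tissues was wider than the range within either. The difference was 1.42 ± 0.20 (SE, n = 3 arrays per tissue), a fold of 2.68, with an adjusted p = 0.0384 in limma over all probe sets. Its spread within tissues was small, with a pooled SD of 0.15 against a median of 0.32 over all probe sets.

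The size of this difference was stable and the call was not. With 1 array left out the difference ran from 1.36 to 1.51, and the adjusted p in limma from 0.0929 to 0.178, so 0 of these 6 fits made the call. Fitted with replicate number as a block, it had an adjusted p = 0.0651.

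The other subfamily 4 gene, SBT4.12, is named beside SBT4.13 in the cutting of the IDA precursor. Its values were 0.17, -0.96 and -0.16 in root replicates 1 to 3, against 0.10, 0.27 and -0.10 in leaf replicates 1 to 3. The tissues overlapped, and root replicate 2 stood apart below the other 5 arrays. The difference was -0.41 ± 0.31 (adjusted p = 0.767 in limma), with a 95% interval from -1.12 to 0.31. Without root replicate 2 it was -0.087, and without root replicate 1 it was -0.65.

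Subfamily 3 had 3 members. SBT3.5 is known for processing a pectin methylesterase in roots, and SBT3.3 for priming of the immune response. SBT3.5 had -0.11, 0.52 and 0.73 in root replicates 1 to 3, against -0.17, 0.11 and -0.14 in leaf replicates 1 to 3. Root was higher in all 3 same-numbered pairs, but root replicate 1 lay among the leaf values. That arrays of the same number form pairs was read from the data alone. The difference of SBT3.5 was 0.44 ± 0.26 (adjusted p = 0.684 in limma), and 0.27 to 0.69 with 1 array left out.

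SBT3.3 had 0.14, -0.14 and 0.54 in root replicates 1 to 3, against 0.51, -0.62 and -0.47 in leaf replicates 1 to 3. Leaf replicate 1 was nearly as high as the highest root array, and the difference was 0.37 ± 0.34 (adjusted p = 0.810 in limma), and 0.16 to 0.73 with 1 array left out. SBT3.12 had 0.073, -0.10 and 0.044 in root replicates 1 to 3, against -0.044, -0.11 and 0.93 in leaf replicates 1 to 3. Here 5 arrays lay close together and leaf replicate 3 was high, and the difference of -0.25 ± 0.30 (adjusted p = 0.870 in limma) turned to 0.083 without that array.

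SBT5.4 was the 1 member of subfamily 5. It is a subtilase whose overexpression in Arabidopsis alters the shoot apex. It had -0.078, 0.70 and 0.078 in root replicates 1 to 3, against 0.20, -0.28 and -0.13 in leaf replicates 1 to 3. Root replicate 2 was the highest array and the other values of the tissues mixed, with a difference of 0.30 ± 0.27 (adjusted p = 0.802 in limma) that was 0.069 without root replicate 2.

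Over the 6 SBT genes the median difference was 0.34, with 4 higher and 2 lower on average in root, beside a median of 0.034 over all probe sets, 54.5% of which had a higher mean in root. The SBT median rests on few genes, and it was 0.18 without leaf replicate 2 and 0.22 without root replicate 2.

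Among carboxypeptidase-like genes the widest mean difference was at scpl16, which belongs with the low-numbered, acyltransferase-type part of the family. Its probe set stood at 0.10, 0.52 and 1.14 in root replicates 1 to 3, against -0.40, -0.10 and -1.13 in leaf replicates 1 to 3. The tissues did not overlap, yet each spread over about as much as lay between their means. The difference was 1.13 ± 0.36, with a 95% interval from 0.30 to 1.96 and an unadjusted p of 0.0137 (adjusted p = 0.349 in limma). The other low-numbered member, scpl18, had -0.19, 0.83 and -0.011 in root replicates 1 to 3, against 0.011, 0.24 and -0.20 in leaf replicates 1 to 3. Its high root replicate 2 set the sign, since the difference of 0.19 ± 0.30 turned to -0.12 without that array.

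The gene scpl21 showed a smaller but tighter separation. It had 0.21, 0.26 and 0.15 in root replicates 1 to 3, against -0.15, -0.33 and -0.46 in leaf replicates 1 to 3. All root arrays lay above 0 and all leaf arrays below it. The difference was 0.52 ± 0.19, a fold of 1.43, with an unadjusted p of 0.0277 (adjusted p = 0.437 in limma). Its pooled SD of 0.12 ranked at percentile 4.85 of all probe sets, and with 1 array left out the difference ran from 0.45 to 0.60.

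SBT4.13, scpl16 and scpl21 were the 3 members whose tissues did not overlap, all higher in root. That is 3 of 30 members, where 15.1% of all probe sets had no overlap and 8.27% had none with root higher, so the count is near the background and is no result about the families. These 3 members also had an unadjusted p under 0.05, which held for 9.56% of all probe sets, 4.68% on the root side.

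**Figure D2:**
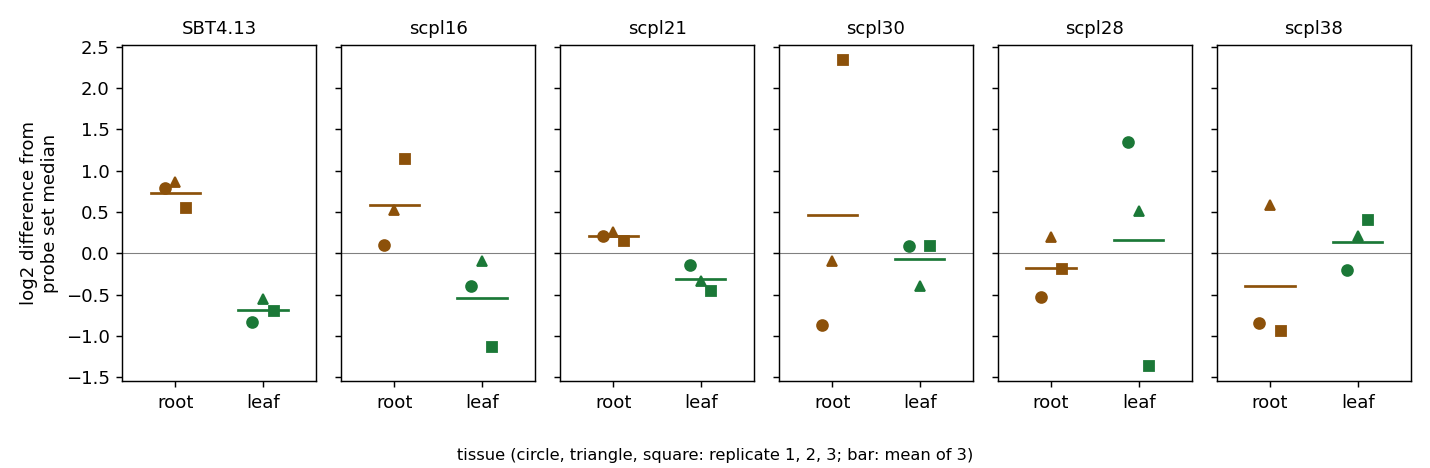
Points show the log2 value on each array relative to the median of the probe set, root left and leaf right in each panel, with circle, triangle and square for replicates 1, 2 and 3 and a bar for the mean of 3 arrays. SBT4.13, scpl16 and scpl21 have separated tissues, while 1 array of scpl30 reaches 2.34 and the leaf arrays of scpl28 run from -1.36 to 1.35.

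Several SCPL genes varied more between replicates than between tissues. SCPL34 had the second widest mean difference of its family on the root side, 0.73 ± 0.46 (adjusted p = 0.709 in limma). It had -0.033, 0.73 and 0.033 in root replicates 1 to 3, against 0.46, -0.53 and -1.39 in leaf replicates 1 to 3. Leaf replicate 1 lay above 2 of the root arrays, and with 1 array left out the difference ran from 0.28 to 1.20.

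The widest spreads were at scpl30 and scpl28, which are named for that spread after their values were seen. In scpl30 the root arrays stood at -0.87, -0.091 and 2.34, against 0.091, -0.40 and 0.091 in leaf, so root replicate 3 alone was high. Its pooled SD ranked at percentile 99.4 of all probe sets, and its difference of 0.53 ± 0.72 (adjusted p = 0.891 in limma) turned to -0.41 without root replicate 3. In scpl28 the root arrays stood at -0.53, 0.19 and -0.19, against 1.35, 0.50 and -1.36 in leaf, where replicates 1 and 3 lay on opposite sides of every root array. Its pooled SD of 1.01 ranked at percentile 98.6, and its difference of -0.34 ± 0.62 (adjusted p = 0.926 in limma) turned to 0.25 without leaf replicate 1.

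Among SCPL genes scpl38 and scpl50 had the widest mean differences on the leaf side. The gene scpl38 had -0.84, 0.59 and -0.94 in root replicates 1 to 3, against -0.20, 0.20 and 0.41 in leaf replicates 1 to 3. Root replicate 2 was the highest of all 6 arrays while the other root arrays were the lowest, which left a difference of -0.53 ± 0.42 (adjusted p = 0.773 in limma). It was -1.03 without root replicate 2 and -0.26 without root replicate 3. The gene scpl50 had -0.22, 0.060 and -0.52 in root replicates 1 to 3, against -0.060, 0.077 and 0.38 in leaf replicates 1 to 3. This gene was the 1 member of both families with leaf higher in all 3 same-numbered pairs, by 0.36 on average (root minus leaf -0.36 ± 0.24, adjusted p = 0.721 in limma).

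**Figure D3:**
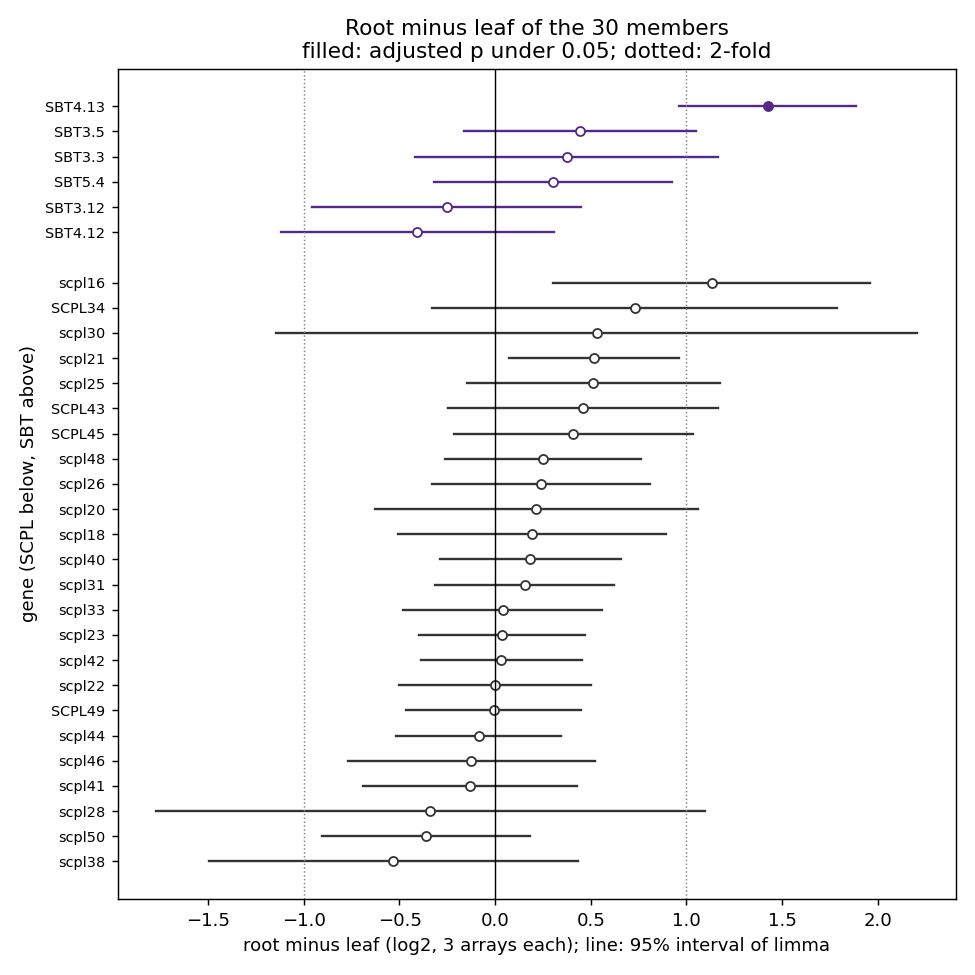
Dots show root minus leaf in log2 units (3 arrays per tissue) and lines the 95% interval from limma, for 6 SBT genes (above) and 24 SCPL genes (below), with dotted lines at a 2-fold difference either way. SBT4.13 is the filled dot, with an adjusted p under 0.05, and the intervals of scpl16 and scpl21 also lie above 0.

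Further SCPL genes on the root side did not pass. The differences were 0.51 ± 0.28 for scpl25, 0.46 ± 0.30 for SCPL43, 0.41 ± 0.27 for SCPL45, 0.25 ± 0.22 for scpl48, 0.24 ± 0.25 for scpl26 and 0.22 ± 0.36 for scpl20. In scpl25, SCPL43, scpl48 and scpl26 root was higher in all 3 same-numbered pairs. With 1 array left out the lowest values were 0.32 for scpl25, 0.28 for SCPL43, 0.17 for SCPL45, 0.092 for scpl48 and 0.052 for scpl26. The sign of scpl20 rested on leaf replicate 2, at -0.93, and its difference was -0.16 without that array.

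The remaining SCPL genes were close to 0. SCPL49, a carboxypeptidase Y type enzyme of the vacuole, had 0.18, -0.046 and -0.17 in root replicates 1 to 3, against -0.12, 0.067 and 0.046 in leaf replicates 1 to 3. Its difference of -0.0078 ± 0.20 had a 95% interval from -0.47 to 0.45. In scpl22 the mean was -0.023 in root and -0.023 in leaf, from values of 0.18, 0.085 and -0.33 in root and -0.091, 0.11 and -0.085 in leaf, with an interval from -0.50 to 0.50.

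The flattest member was scpl42, whose 6 values lay between -0.064 and 0.046 and whose pooled SD of 0.050 ranked at percentile 0.223 of all probe sets. Whether scpl42 lay above background is not known, so its flatness is not read as equal expression. The differences were 0.032 ± 0.18 for scpl42, 0.037 ± 0.19 for scpl23, 0.040 ± 0.22 for scpl33, 0.15 ± 0.20 for scpl31 and 0.18 ± 0.20 for scpl40. They were -0.085 ± 0.19 for scpl44, -0.12 ± 0.28 for scpl46 and -0.13 ± 0.24 for scpl41, which in Arabidopsis acts in membrane lipid turnover. For 17 of the 30 members, 15 of them SCPL, the 95% interval lay within a 2-fold difference either way, against 63.4% of all probe sets. For the other 13 a 2-fold difference in at least 1 direction lay within the interval.

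Over the 24 SCPL genes the median difference was 0.17, with 17 higher on average in root, counting scpl22 with its difference near 0, and 7 lower. Without leaf replicate 3 the median was 0.058. By number, the 2 genes of scpl1 to scpl19 had differences of 1.13 and 0.19, and the 22 genes from scpl20 upward had a median of 0.097 with 15 higher in root. Both families together had 70.0% of members with a higher mean in root, against 54.5% of all probe sets. Root was higher in all 3 same-numbered pairs for 9 of 30 members, against 19.5% of all probe sets, and leaf for 1 of 30, against 14.8%. These shares were not tested, since the members share arrays and were chosen with earlier results known.

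**Figure D4:**
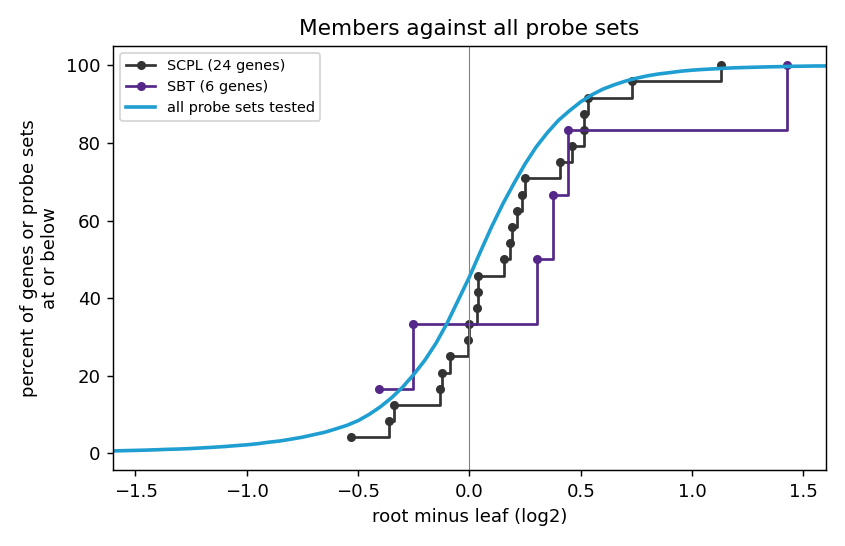
Curves show the percent of genes or probe sets at or below a given root minus leaf difference (log2), for 24 SCPL genes, 6 SBT genes and all 18810 probe sets tested. Both families lie to the right of all probe sets around the middle, with medians of 0.17 and 0.34 against 0.034.

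By array, the highest of a member's 6 values fell on a root array in 22 of 30 members (73.3%, against 53.9% of all probe sets). Root replicate 2 held 9 of these highest values (19.6% of all probe sets), and leaf replicate 2 held 2 (13.1%), as did leaf replicate 3 (3011 of 18810 probe sets). The lowest value fell on root replicate 1 in 1 member (11.2%), on leaf replicate 3 in 8 (19.1%) and on leaf replicate 2, the array that stood apart in the 25S control, in 9 (17.4%). The median over the 30 members was 0.032, 0.073 and 0.037 in root replicates 1 to 3, against -0.029, -0.058 and -0.12 in leaf replicates 1 to 3.

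The table gives no signal levels, but the rounding of its numbers keeps a trace of them. Of all values 97.8% were whole multiples of 2 to the power -22, within 0.12 of a step. If the values were stored in single precision, the finest step of a probe set gives a rough reading of its lowest log2 signal before centring. The classes are under 4, from 4 to 8, and at or above 8. A lower value can also fall on a coarser step, so a brighter class does not exclude an array below it. Read in this way, 11 members (36.7%) had at least 1 array under 4, 17 (56.7%) had at least 1 from 4 to 8 and none under it, and 2 (6.67%), SBT3.12 and scpl31, had all at or above 8. The shares over all probe sets were 36.9%, 55.3% and 6.80%, close to those of the members, and 0.999% could not be read. SBT4.13 and scpl21 belonged to the middle class, and scpl16, SCPL34, scpl28 and the flat scpl42 and scpl23 were among those in the dimmest. Whether any of them lay above background is not known.

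Some genes of the same families fell outside the naming rule. SBT5.2, listed as ATSBT5.2, also cuts the IDA precursor, and its probe set differed by -0.40 ± 0.26 (adjusted p = 0.720 in limma), from -0.15, -0.22 and 0.096 in root replicates 1 to 3, against 0.75, -0.096 and 0.27 in leaf replicates 1 to 3. It was -0.18 without leaf replicate 1 and -0.60 without leaf replicate 2. SBTI1.1, which cuts the precursor of the peptide hormone phytosulfokine, differed by -0.074 ± 0.26 (adjusted p = 0.966). A probe set shared by AT3G56540 and scpl39 differed by 0.23 ± 0.36 (adjusted p = 0.912). Of 12 subtilases under older names 3 were measured and in limma 0 passed, with 0 at an unadjusted p under 0.05. They included ARA12, a subtilase of the seed coat, at -0.56 ± 0.34 and tripeptidyl peptidase TPP2 at 0.37 ± 0.25.

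Substrates, receptors and partners of subtilases were followed through a list of 52 genes, of which 6 were measured. In limma 0 of the 6 passed, 2 had an unadjusted p under 0.05, both higher in root, and 5 had a higher mean in root, with a median difference of 0.55. Over all probe sets 4.68% had such a p on the root side and 54.5% a higher mean in root. FER is the receptor kinase for RALF peptides, some of which are matured by the subtilase S1P. It had 0.44, 0.20 and 0.36 in root replicates 1 to 3, against -1.86, -1.09 and -0.20 in leaf replicates 1 to 3. The tissues did not overlap, which held with root higher for 8.27% of all probe sets. The wide leaf arrays left a difference of 1.38 ± 0.39 (adjusted p = 0.288). The transcription factor gene BZIP17, whose product S1P releases from the membrane, had a difference of 0.74 ± 0.27 (adjusted p = 0.436). Its tissues did not overlap either. Among the protease and inhibitor genes listed below, UND, PDF1.4 and SERPIN1 had no overlap with leaf higher, as did 6.87% of all probe sets. S1P itself stood at -0.29 ± 0.26 (adjusted p = 0.798).

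The pathway of sinapate esters, in which SCPL acyltransferases act, had 3 of 23 listed genes measured, all glucosyltransferases that make the acyl glucose donors. In limma 0 passed and 0 had an unadjusted p under 0.05, with UGT84A4 at -0.72 ± 0.38 (adjusted p = 0.621) and UGT84A3 at 0.041 ± 0.26 (adjusted p = 0.984). Of the 7 SCPL genes listed by mutant or older name 0 matched a single-gene probe set.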

How the data were processed

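RNA of Aloe vera root and leaf was measured on 6 ATH1 arrays (3 per tissue, 250 ng total RNA each, per the labels' protocols). The deposited values come from RMA, per the submitters' processing notes. These deposited values were read here as log2, the usual output of RMA, and every fold rests on that reading; the log base, the centring of each probe set on its median over the 6 arrays and any filter are not given in the sources used here. After removal of 64 control probe sets, root minus leaf was fitted over 18810 probe sets in R 4.3.3 with limma 3.58.1 (lmFit, then eBayes) without a covariate, and called at an adjusted p under 0.05. Standard errors and 95% intervals come from this fit. The fit was also run on simulated arrays drawn independently of one another, so that run does not cover arrays that vary together. Summaries used Python 3.11.15 and pandas 2.3.3. Gene names come from the platform's probe annotation.

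Members, lists and alternatives were chosen with earlier results of these data known. Per-array values were given for members that were called, had an unadjusted p under 0.05 or no overlap, and for the extremes and the difference nearest 0 in each family. From each pathway list the 2 genes with the smallest p were named. S1P, SERPIN1, scpl18, scpl20, scpl30, scpl28, scpl42, SCPL49, the guard cell markers and the other SBT genes were added after their values were seen.

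Root and leaf replicates share numbers. Deviations from the tissue means correlated by 0.12, 0.37 and 0.25 for same-numbered pairs, and by -0.29 to 0.064 for the others. The numbers were therefore taken as pairs, from the data alone, though the pair of replicate 1 stood little above the others. The main fit left the pairs out, and the replicate block took them in. Alternatives were the replicate block, 2 scalings, a variance trend, array weights, 2 choices of probe sets and leaving out each array. No sequences were printed.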

Additional observations from a re-analysis of the deposited data

How the results depend on the processing

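No member was called higher in leaf in limma in any of the 13 settings, where the main fit called 0.276% of all probe sets. In the main fit 0 members had an unadjusted p under 0.05 in that direction, against 4.88% of all probe sets. The 1 member called higher in root, SBT4.13, was called in 6 settings. The count was 0 with the replicate number as a block (adjusted p = 0.0651) and 0 with any 1 array left out. The block changed no other call of a member. Members with no overlap numbered 5 to 10 with 1 array left out, where fewer samples make overlap rarer (23.7% to 26.6% of all probe sets). The SCPL median of 0.17 was 0.12 with array weights, 0.12 after quantile normalization and 0.058 to 0.18 with 1 array left out. The SBT median of 0.34 was 0.18 to 0.43 with 1 array left out. Counts over all probe sets, 12 higher in root and 52 in leaf, were 40 and 115 with trend and robust fitting (cause not tested), 5 and 30 over single-gene probe sets only (fewer tested), and 0 to 5 and 7 to 28 with 1 array left out.

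In 19 of the 30 members the sign held in all 13 settings run. It turned in 22 of 390 member and setting pairs, all among the other 11 members and none of them called. The settings reuse the same 6 arrays, so these pairs are not separate checks. Left-out arrays gave scpl22 from -0.10 to 0.16, SCPL49 from -0.10 to 0.070, scpl33 from -0.10 to 0.16, scpl23 from -0.0021 to 0.10, scpl46 from -0.38 to 0.099, scpl41 from -0.34 to 0.021, scpl20 from -0.16 to 0.58, scpl18 from -0.12 to 0.39, scpl30 from -0.41 to 1.19, scpl28 from -1.10 to 0.25 and SBT3.12 from -0.44 to 0.083. Also, scpl22 was -0.017 after array centring and -0.020 after quantile normalization, and SCPL49 was 0.038 with array weights. Of other genes, left-out arrays gave ALPHA-VPE from -0.010 to 0.92, UGT84A3 from -0.11 to 0.27, the probe set of AT3G56540 and scpl39 from -0.087 to 0.48 and SBTI1.1 from -0.32 to 0.10. Averaging probe sets per gene was not run, since 0 members had several, nor was a filter on dim probe sets, for want of signal levels.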

Other observations

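Other protease families and their inhibitors were listed beside the carboxypeptidases and subtilases. Of 18 genes of vacuolar processing enzymes, the cysteine proteases that mature vacuolar proteins, and metacaspases, 3 were measured. In limma 0 passed and 0 had an unadjusted p under 0.05, with BETA-VPE at -0.32 ± 0.27 (adjusted p = 0.789) and ALPHA-VPE at 0.39 ± 0.52 (adjusted p = 0.884). Of 13 aspartic protease genes 3 were measured and 0 passed in limma. On the leaf side 1 of the 3 had an unadjusted p under 0.05 in limma, against 4.88% of all probe sets. This was UND, at -0.69, -0.097 and -0.15 in root replicates 1 to 3, against 0.097, 0.30 and 0.91 in leaf replicates 1 to 3, a difference of -0.75 ± 0.28 (adjusted p = 0.447). APA1, a vacuolar aspartic protease, stood at -0.32 ± 0.23 (adjusted p = 0.755). The list of 30 protease inhibitor genes also holds a defensin gene. Of these 30 genes 3 were measured and in limma 0 passed, with 0 at an unadjusted p under 0.05. PDF1.4, of the defensin family, stood at -0.45 ± 0.20 (adjusted p = 0.531) and the cystatin CYS1 at 0.31 ± 0.21 (adjusted p = 0.738). Of 29 papain-like cysteine protease genes 0 matched a single-gene probe set. Of 4 pollen and flower markers 0 were measured.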
